A study of Arabidopsis thaliana with 4 samples.

Results

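The 300 nuclear loci with the highest messenger RNA levels in untreated wild-type Arabidopsis roots were described, out of 20080 nuclear loci listed in that library and 21368 listed in any library of the series. They were chosen by ranking nuclear loci on RPKM, reads scaled by coding length and by the total reads of the library, summed over the transcripts of each locus. The ranking used 1 library, Col control, so every level in that library describes the choice and was not tested. The remaining nuclear loci were placed in abundance classes by the same values, at RPKM 100, 10 and 1.

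The series compared roots of the accession Columbia (Col) with roots of luh-4, a mutant line of LEUNIG_HOMOLOG, a transcriptional co-repressor gene, with and without aluminium. About 500 seedlings aged 6 days, grown at pH 5.5, went into each of 4 libraries: Col control and luh-4 control without AlCl3, and Col Al and luh-4 Al with 25 µM AlCl3 at pH 4.2. The treated samples are labelled 4 h and the controls 0 h, while the protocol gives 4 h also for 0 µM, so whether the controls spent 4 h at pH 4.2 is not known here. Each group was 1 library, with no replicate, so no difference between libraries could be tested against biological spread.

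A root's messenger RNA pool is usually very uneven, with a small set of housekeeping genes and tissue-specific secreted and membrane proteins holding much of it. Ribosomal proteins, glycolytic enzymes and respiratory subunits serve growth in all cells, whereas class III peroxidases, extensins, aquaporins and nitrate and phosphate transporters serve the wall, water and nutrient functions of roots. Metallothioneins are small cysteine-rich proteins that bind metals such as copper and zinc.

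The coding sequences of a pair of similar copies are shown first, because telling such copies apart rests on the bases at which they differ. They are RefSeq coding sequences of assembly TAIR10.1, 5′ to 3′, and capitals mark the bases that differ. MT1A (chr1:2338904-2339321, minus strand) and MT1C (chr1:2341447-2342148, plus strand) are 138 bases long, differ at 7 bases and are 94.9% identical, with 39 bases in the longest identical run.
MT1A: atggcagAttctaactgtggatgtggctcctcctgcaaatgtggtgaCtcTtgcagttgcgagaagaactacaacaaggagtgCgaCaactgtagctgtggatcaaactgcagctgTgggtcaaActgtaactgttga
MT1C: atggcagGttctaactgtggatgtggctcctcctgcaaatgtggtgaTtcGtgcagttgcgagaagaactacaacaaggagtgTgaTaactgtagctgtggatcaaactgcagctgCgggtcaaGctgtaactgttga

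MT1A, a type 1 metallothionein gene, had by far the highest level, with an RPKM of 22149 in Col control from 41866 reads (exact 95% Poisson interval 21937 to 22362, counting error only). Its RPKM was 24987 in Col Al, 24669 in luh-4 control and 23931 in luh-4 Al. It ranked first in all of these libraries and held 2.22% of nuclear RPKM in Col control. Counted by reads it ranked 8, because its coding sequence is only 138 bases long. Among 32-base words of its coding sequence, 57.9% also occur at another locus, 51.4% at MT1B and 8.41% at MT1C. The metallothionein 1 copies, MT1A and MT1B above all, are therefore uncertain as single genes. The deposited RPKM was 1022 for MT1C and 207 for MT1B.

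The other metallothioneins differed widely in listed level. MT2B, a type 2 gene, stood at 1169, 1036, 888 and 1003 RPKM in Col control, Col with Al, luh-4 control and luh-4 with Al. MT3 was listed at 58.8 and MT2A at 9.2 RPKM in Col control. MT3 and MT2A each have 2 coding transcripts in RefSeq, whereas MT1A, MT1C and MT2B have 1.

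The pool was concentrated in few loci. The 25 highest loci held 8.74% of nuclear RPKM, the 100 highest 19.3% and the 300 highest 34.5%, and 730 loci were enough for 50% of it. The 300 loci took 24.6% of nuclear reads, since their median coding length of 568.5 bases was shorter than the 1134 bases of all listed loci. Within the 300, RPKM ran from 22149 down to 537, with a median of 874. Each of the 300 had at least 1194 reads, so counting error was small beside the differences between ranks far apart.

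The abundance classes were unequal in size. An RPKM of at least 100 was reached by 1960 loci, which held 68.9% of nuclear RPKM and 59.0% of nuclear reads. A further 8225 loci at 10 to 100 held 28.2% of RPKM, 6320 loci at 1 to 10 held 2.78%, and 3575 loci under 1 held 0.133%. The median number of reads per locus fell from 2491.5 in the highest class to 427, 58 and 4 in the classes below it, so the lowest class rests on a handful of reads per locus.

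**Figure D1:**
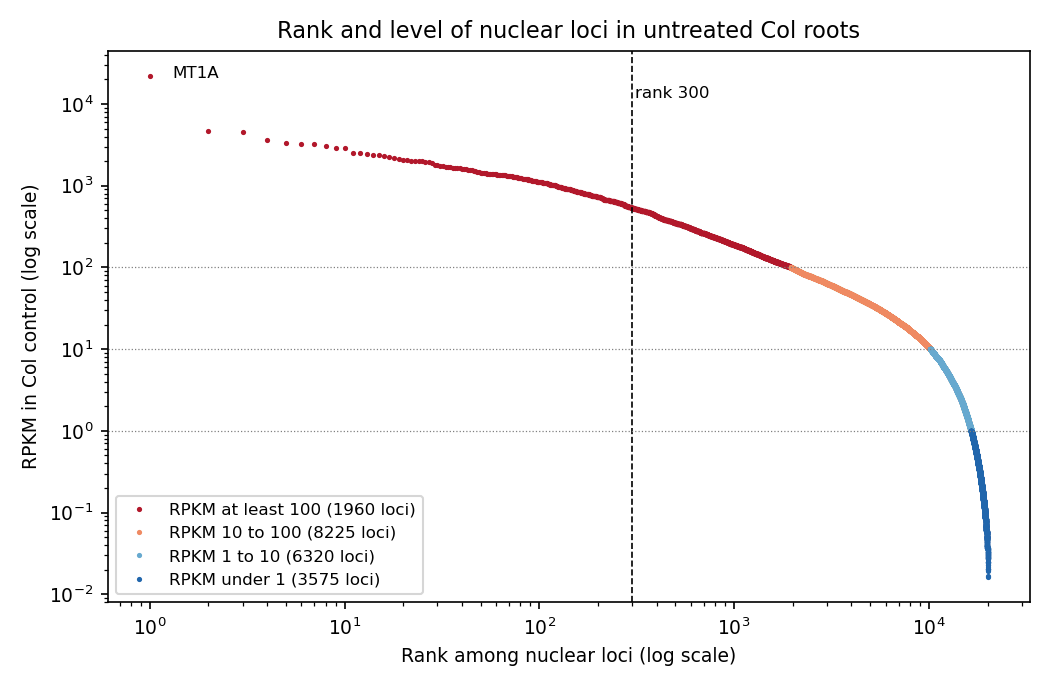
RPKM in Col control against rank, both on log scales, with 1 point per nuclear locus coloured by abundance class; dotted lines mark RPKM 100, 10 and 1 and the dashed line rank 300. MT1A stands alone at 22149 RPKM, the next locus is at 4740.2, and the curve passes 537 at rank 300.

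The class limits fell inside a continuous series of values. AT3G22600, a lipid-transfer-type protein gene at rank 300, had 537 RPKM, and CRT1b, a calreticulin of the endoplasmic reticulum at rank 301, had 534. GAE6, an enzyme gene for pectin precursors on the inner side, had 537, and RAN2, a small nuclear GTPase gene on the outer side, had 533. AT5G62930 at 100.05 RPKM and SHA1 at 99.99 were the loci nearest to the limit of 100. DRIP2, an E3 ubiquitin ligase gene, lay just above 10 and AT4G19920 just below it at 9.9997.

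Cytosolic ribosomal proteins were the largest function class among the 300 by RPKM, with 79 loci, or 26.3%. The count was 66 when RefSeq product text assigned the class, and 41 when loci were ranked by reads in place of RPKM. The class, assigned by keywords in the description column of the deposited tables, made up 8.32% of loci with an RPKM of at least 100 and 0.693% of those at 10 to 100. Of 240 listed loci in the class, 163 (67.9%) reached 100 RPKM, and together they held 11.7% of nuclear RPKM in Col control. The same class held 11.1% in Col Al, 11.6% in luh-4 control and 11.8% in luh-4 Al.

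S8-1 (AT5G20290), a small-subunit protein gene, was the highest of them, at 2915 RPKM in Col control, 2653 in Col Al, 2636 in luh-4 control and 2847 in luh-4 Al. L37a-2 (AT3G60245) of the large subunit stood at 2389, 1912, 1946 and 2173 in the same order. L18a-2 (AT2G34480), also of the large subunit, stood at 2281, 2132, 2337 and 2320.3. The next largest class, loci for which the column named no function, had 36 members. MT1A and MT1C were among them, since the column did not name them as metallothioneins.

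Where descriptions gave a subunit and family name, 177 loci fell into 75 families, of which 54 had a member among the 300. Families follow that wording alone, so a misnamed or organelle protein would be counted with them. Summed over copies, the median family stood at 1206 RPKM for 29 families of the 40S subunit and at 1275 for 46 of the 60S subunit. The copies of a family were often unequal: in 27 of 61 families with several listed copies, 1 copy held at least 75% of the sum. S8 was an extreme case, with 2915 RPKM from S8-1 and 29.2 from AT5G59240, whereas both S3a copies were high, at 1523 and 1337. Some copies cannot be told apart well: the coding sequences of L35a-4 (AT3G55750, 1359.5 RPKM) and L35a-2 (AT1G41880, 983 RPKM) differ at 6 of 336 bases. At the other end, L3 was listed at 120, L4 at 117 and P1 at 4.27 RPKM. Listing differed with transcript number. By RefSeq product, 36 of 105 ribosomal loci with several coding transcripts were not listed in Col control, against 20 of 195 with 1. Median coverage of the listed loci was 87.1% and 100%. The part of this in the unequal copies and low families was not tested.

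**Figure D2:**
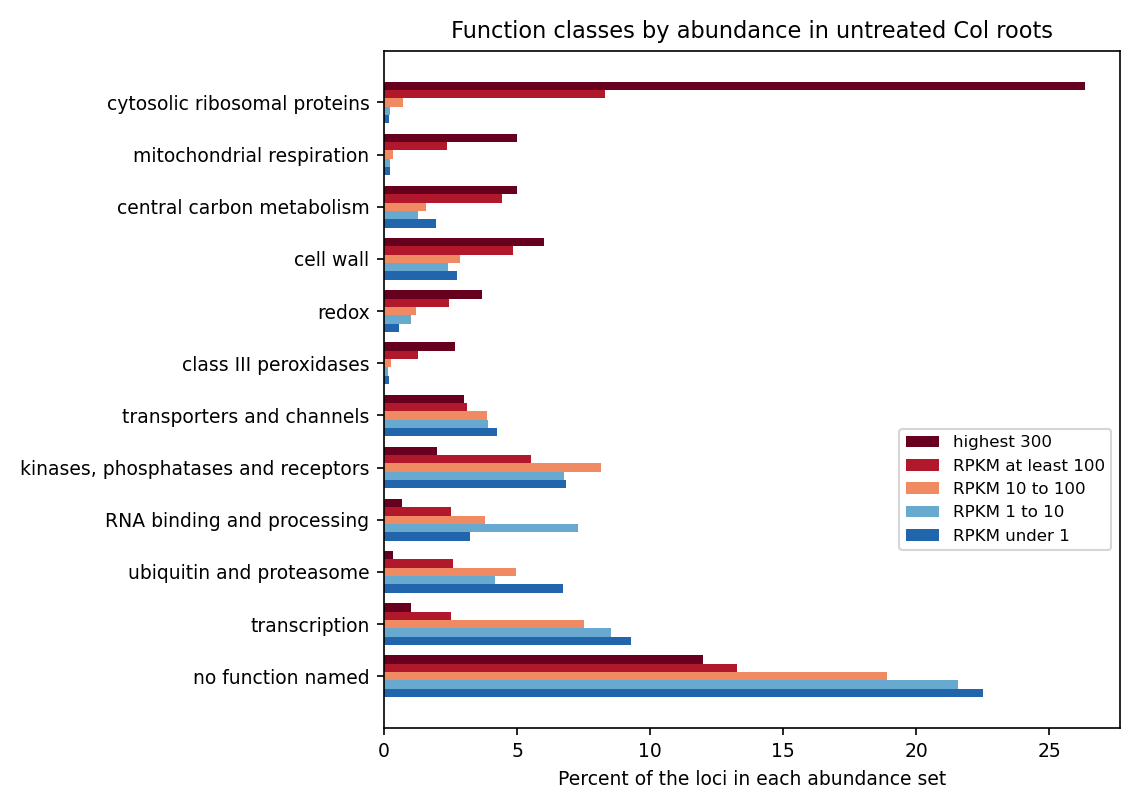
Share of loci of each abundance set, in percent, that fell into 12 of the function classes, for the 300 highest loci and the classes by RPKM in Col control. Cytosolic ribosomal proteins make up 26.3% of the 300 and 0.693% of loci at 10 to 100 RPKM, while transcription makes up 9.29% of loci under 1.

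Promoter sequences of ribosomal protein genes were compared with those of other loci, since promoter letters were not used in the choice of loci. Windows ran from 250 bases before to 50 bases after the RefSeq gene start in TAIR10.1, and matches were counted on both strands. The letters TGGGCC are the core of a so-called site II element, known from ribosomal and other growth-related plant promoters. The letters AAACCCTA are those of a telo-box, known from similar promoters. A box for the start of transcription, TATAAA, and the G-box, CACGTG, were searched in the same way. No motif contains another, though matches could overlap at their ends.

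The windows of the 3 highest ribosomal protein genes are shown with those of FBA8 and PYK10, a glycolytic and a root defence gene among the 10 highest, for comparison; capitals mark matches of TGGGCC, AAACCCTA or TATAAA. They lie at chr5:6853057-6853356 (minus strand) for S8-1, chr3:22268438-22268737 (plus strand) for L37a-2, chr2:14534360-14534659 (minus strand) for L18a-2, chr3:19629155-19629454 (minus strand) for FBA8 and chr3:2843732-2844031 (minus strand) for PYK10.
S8-1: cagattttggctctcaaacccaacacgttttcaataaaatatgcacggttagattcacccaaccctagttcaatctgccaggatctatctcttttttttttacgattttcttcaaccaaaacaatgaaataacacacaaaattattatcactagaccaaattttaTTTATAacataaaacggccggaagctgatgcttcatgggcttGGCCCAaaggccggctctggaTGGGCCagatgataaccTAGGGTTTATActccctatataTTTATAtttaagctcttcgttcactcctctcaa
L37a-2: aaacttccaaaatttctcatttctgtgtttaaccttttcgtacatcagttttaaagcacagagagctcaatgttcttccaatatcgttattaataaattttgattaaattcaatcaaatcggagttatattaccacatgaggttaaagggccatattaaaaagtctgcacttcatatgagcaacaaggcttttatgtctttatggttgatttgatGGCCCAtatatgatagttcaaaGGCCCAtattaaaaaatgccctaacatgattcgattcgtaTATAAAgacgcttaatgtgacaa
L18a-2: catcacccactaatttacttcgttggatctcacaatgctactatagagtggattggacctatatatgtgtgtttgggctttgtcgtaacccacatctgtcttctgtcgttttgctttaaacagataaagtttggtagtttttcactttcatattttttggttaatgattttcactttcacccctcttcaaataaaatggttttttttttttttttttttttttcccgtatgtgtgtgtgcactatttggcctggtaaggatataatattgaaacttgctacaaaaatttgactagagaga
FBA8: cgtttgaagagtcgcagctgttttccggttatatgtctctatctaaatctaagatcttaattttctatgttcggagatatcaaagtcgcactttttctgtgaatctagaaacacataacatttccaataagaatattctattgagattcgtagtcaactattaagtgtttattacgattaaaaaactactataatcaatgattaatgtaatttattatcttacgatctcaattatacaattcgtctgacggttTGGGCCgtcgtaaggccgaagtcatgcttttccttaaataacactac
PYK10: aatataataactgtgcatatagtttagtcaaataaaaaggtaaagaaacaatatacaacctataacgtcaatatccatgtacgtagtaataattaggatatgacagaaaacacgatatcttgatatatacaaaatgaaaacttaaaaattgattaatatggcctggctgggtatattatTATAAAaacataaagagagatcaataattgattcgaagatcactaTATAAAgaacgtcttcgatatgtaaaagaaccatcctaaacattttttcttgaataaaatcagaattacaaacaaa

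S8-1 held 2 TGGGCC matches and 1 AAACCCTA match, all starting within the last 43 bases before the gene start, and L37a-2 held 2 TGGGCC matches. L18a-2, with a level close to that of L37a-2, held no match of these letters. Across the 79 ribosomal loci of the 300, TGGGCC was found in 59 promoters (74.7%), AAACCCTA in 39 (49.4%) and at least 1 of them in 67 (84.8%). Over all 240 listed ribosomal loci, at any level, the shares were 61.25%, 41.25% and 74.2%, so the matches were frequent in the whole class. Among all 27444 RefSeq protein-coding nuclear loci the shares were 15.5%, 6.22% and 20.05%. In the 219 other loci of the 300 with a RefSeq promoter, they were 20.1%, 4.57% and 22.4%.

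By abundance, TGGGCC was found in 34.6% of the 300, 23.8% of loci at 100 RPKM or more, 19.2% at 10 to 100, 15.8% at 1 to 10 and 13.1% under 1. AAACCCTA was found in 16.4%, 9.16%, 5.17%, 4.98% and 5.54% of the same sets. TATAAA was found in 52.3%, 56.3%, 52.3%, 51.2% and 51.1% of them, and in 52.1% of all loci. CACGTG was found in 6.71% of the 300 and 7.68% of all loci, and the mean GC content of the windows was 31.99% and 32.18%.

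Enzymes of energy metabolism were also among the highest loci. FBA8, a cytosolic fructose-bisphosphate aldolase of glycolysis, had the second highest level, at 4740.2 RPKM in Col control, 4781 in Col Al, 4473 in luh-4 control and 5049 in luh-4 Al. GAPC1, the cytosolic glyceraldehyde-3-phosphate dehydrogenase that follows in the same pathway, stood at 3073, 2951, 2942 and 3363. LOS2, the enolase gene, stood at 1939.8, 1937, 2031 and 2038. The ranges of these enzymes over the 4 libraries were narrow.

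Central carbon metabolism counted 15 of the 300, or 36 of the highest 300 by reads, among them triosephosphate isomerase (TPI, 1734 RPKM in Col control) and cytosolic malate dehydrogenase (c-NAD-MDH1, 1689.9). Mitochondrial respiration counted 15, or 7 by reads, led by the ATP synthase epsilon subunit AT1G51650 at 2416 RPKM, a beta subunit gene AT5G08670 at 1393 and the delta' subunit AT5G47030 at 1349.6. Of 95 listed respiration loci, 46 reached 100 RPKM. Of 368 listed loci of central carbon metabolism, 87 did so.

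Class III peroxidases, secreted enzymes that oxidise phenolics and cross-link wall polymers, took 8 places. Peroxidase 32 (AT3G32980) stood at 4566, 5119, 4026 and 4359 RPKM in Col control, Col with Al, luh-4 control and luh-4 with Al. PRXR1, peroxidase 42, stood at 3605, 3596, 3609.9 and 3723. Peroxidase 22 (AT2G38380) stood at 1264, 1609, 1059 and 1289.9. Of the 60 listed peroxidases, 25 reached 100 RPKM, and their median of 52.6 was above the 10.4 of all listed loci.

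Wall structure was also prominent. EXT3, an extensin needed for the scaffold of new cell walls, stood at 3381, 3246, 3495 and 3328 RPKM in the 4 libraries, and the extensin-like AT2G43150 at 3274, 3142, 3424 and 3555. The description column named no function for either gene, so both were outside the 18 loci of the cell wall class. UCC2, a uclacyanin, led that class at 1982, 2737, 1703 and 3027, and was higher in both Al libraries than in either control. Such a lack of overlap was common: of 17306 nuclear loci with an RPKM of at least 1 in any library, 24.4% were higher and 24.2% lower in both Al libraries. Of the 300, 45 were higher and 92 lower, but Col control chose them, so nothing is read from these counts. PMEPCRA, a pectin methylesterase gene, stood at 1469 and PGIP1, which encodes an inhibitor of polygalacturonase, at 1404 RPKM in Col control.

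Of the 36 loci without a named function, the RefSeq product text gave a function class for 25. AT5G14330, whose product is uncharacterized in RefSeq too and whose coding length is 387 bases, stood at 2075 RPKM in Col control, 1143 in Col Al, 1337 in luh-4 control and 1572 in luh-4 Al. It was highest in Col control, the library by which it was chosen.

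Defence and secondary metabolism took 16 places. PYK10, the beta-glucosidase that accumulates in the endoplasmic reticulum bodies of Brassicaceae roots, stood at 3204 RPKM in Col control and 3674 in luh-4 control, above its 2259 and 2282 in Col Al and luh-4 Al. LCR68, a defensin-like protein gene, stood at 2034, 2073, 1704 and 1598. AT2G43590, a chitinase-like protein gene, stood at 1784 and 1868 in the controls and at 2818 and 3121 in Col Al and luh-4 Al, so its groups with and without Al did not overlap.

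Redox proteins took 11 places, led by glutathione S-transferases, enzymes that conjugate glutathione to reactive compounds. GSTF8 stood at 2901 in Col control, 3825 in Col Al, 2461 in luh-4 control and 3720.3 in luh-4 Al. GSTF10 stood at 2169, 2369, 2547 and 2688, and the thioredoxin gene TRX3 at 1945, 2071, 2146 and 2143.

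Aquaporins had few listed members but a large share of them at high level: 15 of 27 reached 100 RPKM and 5 were among the 300. GAMMA-TIP (TIP1;1), a vacuolar water channel gene, stood at 2509.7 and 2204 RPKM in Col control and luh-4 control and at 1711 and 1667 in Col Al and luh-4 Al. TIP2 (TIP1;2) stood at 2355 and 2080.3 in Col control and luh-4 control, and at 1513 and 1369 with Al. PIP2B, a plasma membrane channel gene, stood at 1598 and 1403 in the controls and at 1081 and 879.9 with Al. All 3, and 4 of the 5 aquaporins in all, were lower in both Al libraries than in either control, as 24.2% of all loci measured were. Col control, 1 of those controls, chose the 5 for their high level there, so nothing is read from this count.

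The class of transporters and channels had 9 members, or 22 by reads, and nitrogen and amino acid metabolism had 7. PHT1;1, a high-affinity phosphate transporter, stood at 1369 RPKM in Col control, 825 in Col Al, 1168 in luh-4 control and 759 in luh-4 Al. Of its 32-base words, 62.5% also occur in PHT1;2, which was not listed in any library, so reads of both copies may be counted at PHT1;1. NRT1.1, the dual-affinity nitrate transporter and sensor, stood at 1252, 699, 1079 and 621, and NRT2:1, a high-affinity nitrate transporter, at 1155, 692, 733 and 406. NRT1.5, which loads nitrate into the xylem, stood at 687 in Col control and 792 in Col Al.

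The nitrate assimilation enzymes were at similar level. NIA1, a nitrate reductase gene, stood at 1102, 1199.8, 943 and 1108 RPKM in the 4 libraries, and NIR1, nitrite reductase, at 1079, 871, 919 and 755. GAD, glutamate decarboxylase 1, stood at 1016 in Col control, and NIA2 and the cytosolic glutamine synthetase GSR 1 at 723 and 850.2. The mitochondrial phosphate carrier PHT3;1 stood at 958 RPKM.

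**Figure D3:**
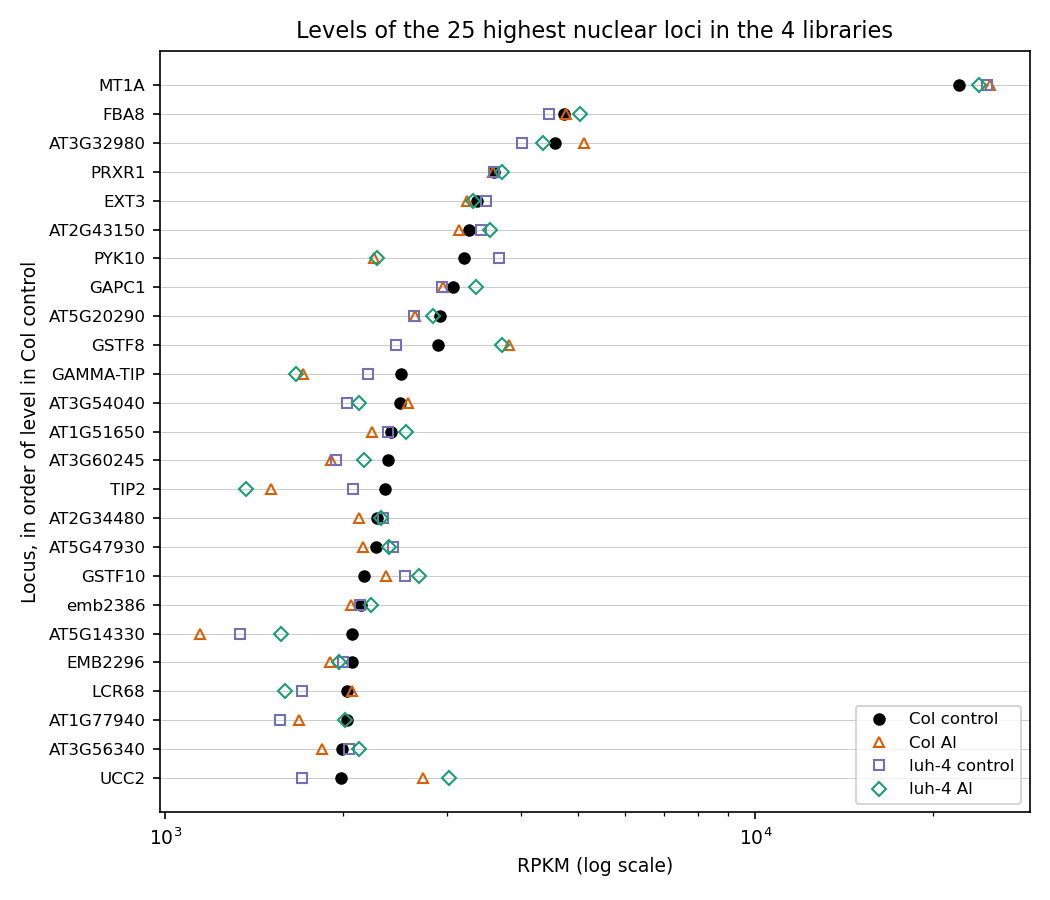
RPKM on a log scale of the 25 highest nuclear loci of Col control, in order of that level, with 1 point for each of the 4 libraries and no error bars, since each group was 1 library. Of the 25 loci, 5 have both Al points left of both control points (EXT3, PYK10, GAMMA-TIP, TIP2 and EMB2296) and 3 have them to the right (FBA8, GSTF8 and UCC2). Over 17306 nuclear loci, 24.2% were lower and 24.4% higher in both Al libraries. Col control chose the 25, so nothing is read from these counts. MT1A lies between 22149 and 24987 throughout.

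Other function classes also had at least 5 loci among the 300. Lipid-related proteins counted 8, with DOX1, an alpha-dioxygenase of fatty acids, at 1009 RPKM, ACBP6, an acyl-CoA-binding protein, at 819 and the lipid-transfer-type AT1G48750 at 803. The cytoskeleton counted 7, led by PFN2, a profilin, at 1121, TUA4, an alpha-tubulin, at 1046 and TUA2 at 790.2. TUA4 and TUA2 share 47.1% and 30.9% of their 32-base words with other loci.

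Stress proteins counted 7, with the dehydrin gene COR47 at 1196 RPKM in Col control, AT1G54410 at 995 and RCI2B at 938. Protein folding counted 6, with the cyclophilin gene ROC5 at 1637, the small heat shock protein gene AT2G29500 at 1039.6 and the cyclophilin gene ROC1 at 653. Translation factors counted 6, with TCTP at 1876, LOS1, elongation factor 2, at 1283 and an elongation factor 1-beta gene (AT5G19510) at 950.2. Proteases and inhibitors counted 6, with RD19, a cysteine protease, at 1677 and CYS1, a cystatin, at 1192. AT3G18280, in this class by a keyword in its description alone, stood at 1013.

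Signalling proteins counted 6, led by ATARCA, a ribosome-associated scaffold protein of the RACK1 type, at 1447 RPKM, the annexin ANNAT1 at 1098 and the leucine-rich repeat protein gene AT5G21090 at 793. Methionine and one-carbon metabolism counted 5, with MTO3, an S-adenosylmethionine synthase, at 1278, APS4, a sulfate adenylyltransferase, at 682 and SHM4 at 633. Vesicle traffic and small GTPases counted 5, with ARF1 at 678, RAN3 at 634 and AT1G30580 at 614. Among 9 loci with other functions, AT3G54040, a PAR1-type protein gene, was highest at 2496, followed by AT3G48140 at 1542 and AT4G16260 at 1225.

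Regulatory genes were few at the top. Transcription made up 3 of the 300, 49 of the 1960 loci with at least 100 RPKM and 7.66% of all listed loci. It made up 7.53% at 10 to 100, 8.51% at 1 to 10 and 9.29% under 1. The 3 of the 300 were BTF3 at 669 RPKM, MBF1A, a transcriptional coactivator, at 599 and bZIP2, a basic leucine zipper factor, at 559. BTF3, despite its name, is known as a subunit of the nascent polypeptide-associated complex. The keywords missed some transcription factors, such as SHR and AP3, which fell under other functions. Kinases, phosphatases and receptors made up 6 of the 300 and 8.13% of loci at 10 to 100. Proteins of ubiquitin and the proteasome made up 1 of the 300 and 4.95% of that class.

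RNA binding and processing was most frequent at 1 to 10 RPKM, with 7.28% of loci there and 0.667% of the 300. No histone, organelle ribosomal protein, replication or photosynthesis locus was among the 300. The highest histone locus was HTB4 at rank 403 with 422 RPKM, and 17 of 39 listed histone loci reached 100 RPKM. LHB1B2, a light-harvesting protein gene, was the highest photosynthesis locus, at 181 RPKM.

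The labelled tissue was checked against marker lists. Of 22 root markers, 20 were listed in Col control, 7 reached 100 RPKM and 3 were among the 300. FRO2, the root ferric chelate reductase, stood at 469 RPKM, IRT1, the iron transporter, at 304 and CASP1, a Casparian strip protein, at 448. EXPA7 and COBL9 of root hairs stood at 159 and 48.4, SCR and SHR of the ground tissue at 51.8 and 32.5, MYB36 at 13.3, PLT1 and PLT2 of the stem cell niche at 13.4 and 9.24, and WER of the epidermis at 21.1. TIP2;3 stood at 22.9, APL of the phloem at 5.56, RSL4 at 5.45 and VND7 of the xylem at 4.27. AHA2, covered over 16.5% of its length, was listed at 60.4. GL2, with 6 coding transcripts in RefSeq, was listed at 0.313 from 10 reads over 11.4% of its length. Coverage was 37.7% for APL and 68.9% for IRT1. PIP1;1, with 2 coding transcripts in RefSeq, and SMB, with 5, were not listed.

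Markers of green shoot tissue were low in Col control: the 11 listed genes ran from 1.28 to 26.97 RPKM, none at 0 and none at 100. In ascending order, LHCB2.2 stood at 1.28, LHCB1.1 at 1.45, RBCS2B at 1.60, LHCB1.2 at 1.91, RCA at 1.92, LHCB2.1 at 2.65, RBCS3B at 3.21, RBCS1A at 14.8, LHCB1.3 at 18.3, PSAD1 at 20.96 and PSBO1 at 26.97. Their summed level was 94.99 in Col control, 68.0 in Col Al, 365 in luh-4 control and 84.8 in luh-4 Al, so the luh-4 control library stood apart and its part in results that use that library was not tested. Outside this list, the light-harvesting gene LHB1B2 stood at 181 RPKM in Col control. In that library 2 of 76 listed photosynthesis loci reached 100 RPKM. Of 6 seed genes only SESA4 was listed, at 3.21, and of 2 flower genes only AP3, at 1.67 RPKM. The unlisted SESA1 and OLEO1 have 1 coding transcript in RefSeq. The unlisted CRA1, CRU3, EM1 and AG have 3, 5, 2 and 4. Whether unlisted loci with several transcripts lacked RNA or were left out of the counts was not tested.

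Common reference genes differed in how well they were measured. ACT8 stood at 787 RPKM with full coverage and TUB4 at 634, both with 1 coding transcript in RefSeq. ACT2, with 3 transcripts, was listed at 106 with 31.2% of its length covered, GAPC2, with 2, at 567 with 54.0% covered, and UBQ10, with 8, at 8.96 with 27.02% covered. UBC21 was listed in no library and PP2AA3 had 1 read in each luh-4 library and none in Col.

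Loci with several coding transcripts in RefSeq were scarcer at high level. They made up 15.4% of the 300, 19.8% of loci at 100 RPKM or more, 34.3% at 10 to 100, 50.1% at 1 to 10 and 48.9% under 1, against 39.0% of all RefSeq loci. Coverage under 90% of the coding length was seen for 9 of the 300 and for 3.88%, 9.08%, 46.4% and 98.8% of the classes in the same order. At loci with 1 transcript the median coverage was 100% and 9.36% reached 100 RPKM, and at loci with several they were 73.1% and 3.62%.

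The same held within one protein group. Of 195 loci that the RefSeq product named as cytosolic ribosomal proteins with 1 transcript, 20 were not listed in Col control and 53.3% reached 100 RPKM. Of 105 such loci with several transcripts, 36 were not listed and 30.5% reached 100 RPKM. The listed median was 150 RPKM in the first set and 87.5 in the second. The part of transcript number in the ranking was not tested.

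**Figure D4:**
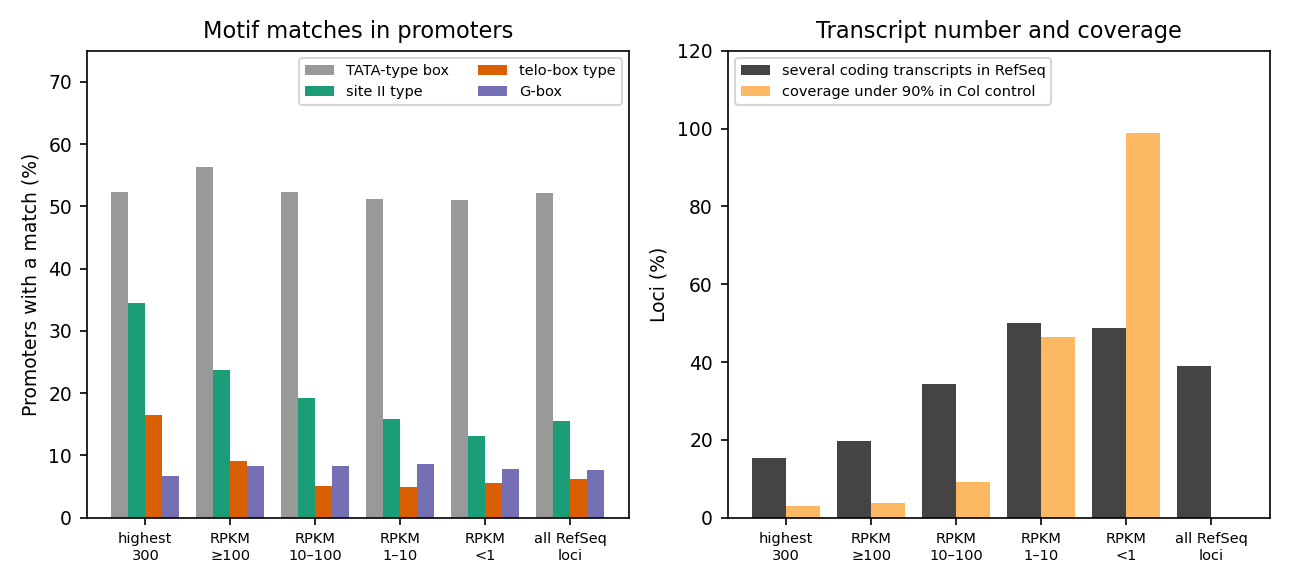
Left, percent of promoter windows with a match of each motif type, and right, percent of loci with several coding transcripts in RefSeq (dark) and with coverage under 90% (light; not defined for all RefSeq loci), for the 300 highest loci and each abundance class. Site II matches fall from 34.6% to 13.1% and loci with several transcripts rise from 15.4% to 48.9% between the 300 and the lowest class.

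The same loci were high in all libraries. Of the 300, 270 were also among the 300 highest of Col Al, 285 among those of luh-4 control and 274 among those of luh-4 Al, and the 300 highest of each library held 34.1%, 34.2% and 34.7% of its nuclear RPKM. These overlaps compare libraries of like tissue and depth, and they are a description. The highest of a member's 4 values was 1.18 times its lowest in the median, under 1.5 times for 250 members and at least 2 times for 14. No ribosomal member reached 1.5 times, and their largest value was 1.39. In bulk roots, fewer cells of a type and less RNA per cell cannot be told apart in any of these differences.

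The ratio of luh-4 Al to luh-4 control shares no library with the choice of members. A locus was called past the size rule at a 2-fold change of RPKM plus 0.1, if its exact 95% conditional binomial (Clopper-Pearson) interval on reads excluded no change. Of all 16996 nuclear loci measured with an RPKM of at least 1 in either library, 2.02% were higher and 3.11% lower in luh-4 Al by this rule. Of the 300, 0 were higher and 6 lower, so the count of lower members was not above the share over all loci. That share differed with level in Col control. At 100 RPKM or more, 14 of 1960 loci were higher and 30 lower. Lower were 117 of 8223 loci at 10 to 100, 286 of 6138 at 1 to 10 and 93 of 644 under 1. The count was not tested against loci of like level. The median log2 ratio of the 300 was -0.01, against -0.02 for all loci measured.

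The 6 lower members were an aquaporin, a pair of peroxidases and 3 arabinogalactan proteins, the last being heavily glycosylated proteins of the cell surface. TIP2;2, a vacuolar aquaporin gene, stood at 407 RPKM in luh-4 control and 124 in luh-4 Al, a log2 ratio of -1.72 (interval -1.81 to -1.63). Peroxidase 69 (AT5G64100) stood at 1019 and 318 (-1.68, interval -1.73 to -1.63). AGP22 stood at 623 and 206, with a log2 ratio of -1.60. FLA9 (-1.23), AGP14 (-1.21) and peroxidase 27 (AT3G01190, -1.19) completed the 6.

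The members furthest up in that ratio stayed below the size rule. DOX1 stood at 908 RPKM in luh-4 control and 1732 in luh-4 Al, a log2 ratio of 0.93 (interval 0.91 to 0.96). UCC2 (0.83), PCR2, which encodes a plasma membrane protein linked to zinc and cadmium transport (0.80), AT2G43590 (0.74) and the proline-rich protein gene AT4G19200 (0.71) followed.

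The ratio of Col Al to Col control uses the library that chose the members, which favours values that were high there, so nothing is read from its counts. Over all 16946 loci measured, 2.62% were higher and 2.89% lower in Col Al; of the 300, 0 were higher and 9 lower. AGP22 stood at 600.4 and 119 RPKM, a log2 ratio of -2.34, and peroxidase 69 at 1156 and 273, a ratio of -2.08. FLA9 (-1.90), peroxidase 27 (-1.81) and TIP2;2 (-1.78) followed. Peroxidase 45 (AT4G30170), AT5G44020, AT4G15390 and AGP14 were the others, between -1.53 and -1.17.

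Furthest up in Col Al were DOX1 at 0.97, GSTF2 at 0.76, AT4G19200 at 0.74, AT3G22600 at 0.68 and AT2G43590 at 0.66 on the log2 scale. GSTF2, another glutathione S-transferase gene, stood at 1775 RPKM in Col control, 3015 in Col Al, 1826 in luh-4 control and 2832 in luh-4 Al. DOX1 stood at 1009, 1974, 908 and 1732 in the same order, with both Al libraries above both controls.

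**Figure D5:**
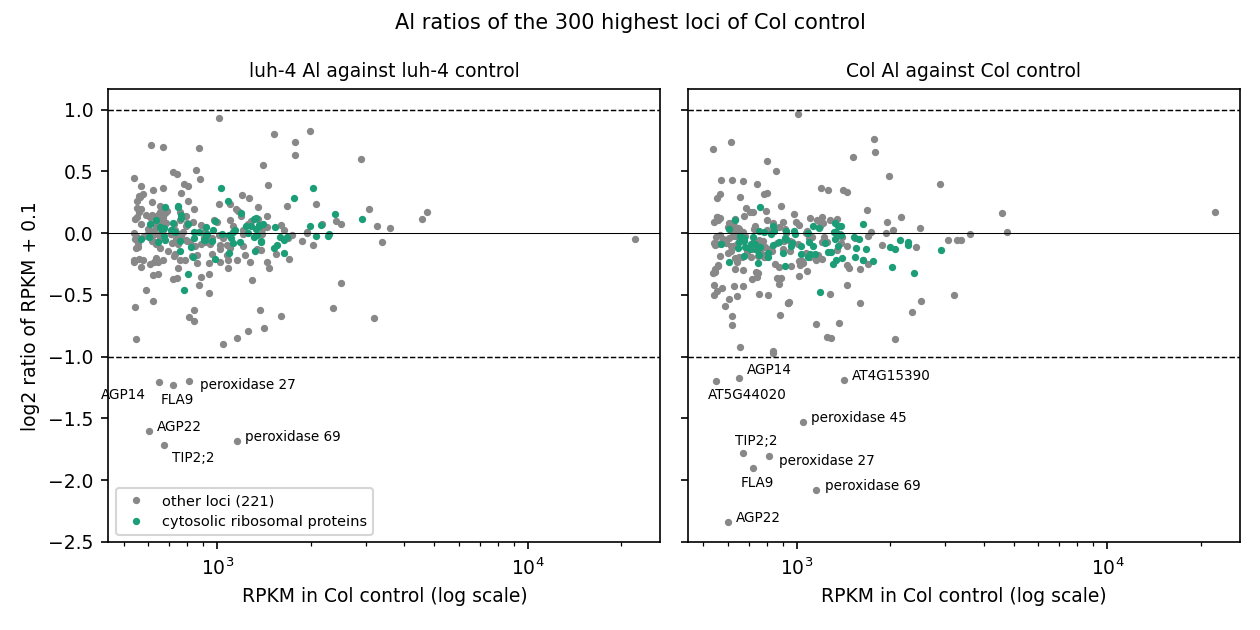
log2 ratio of RPKM plus 0.1 against RPKM in Col control (log scale) for the 300 highest loci, for luh-4 Al against luh-4 control (left) and Col Al against Col control (right); green points are cytosolic ribosomal proteins and dashed lines mark 2-fold. In the left panel 6 members and in the right panel 9 lie past the lower line and none past the upper one.

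The ratio of luh-4 control to Col control also uses the library that chose the members, so nothing is read from its counts either. Over all loci measured, 1.56% were higher and 0.844% lower in luh-4 control, and of the 300, 0 passed the size rule in either direction. PR4, a hevein-like pathogenesis-related protein gene, was furthest up, at 714 RPKM in Col control and 1059 in luh-4 control (log2 ratio 0.57), followed by AT4G16260 (0.38), the ribosomal protein genes AT4G39200 (0.30) and AT3G45030 (0.29), and GLL22 (0.27). AT1G28135 (-0.76), TIP2;2 (-0.73), AGP24 (-0.69), NRT2:1 (-0.66) and AT5G14330 (-0.63) were furthest down. All 11 green shoot markers were higher in luh-4 control than in Col control, and their part in this ratio was not tested.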

How the data were processed

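Messenger RNA of roots, selected with oligo(dT), was sequenced, per the labels' protocols. TAIR10 is the build in the submitters' processing notes; the aligner, the counter and the strand setting are not stated there. The authors deposited, by library, read counts per transcript, the RPKM computed from them, the percent of the coding length covered, and the coding length itself. Per the file headers the counts total 13697345 and 13819365 in Col without and with Al, and 13735435 and 13450338 in luh-4 without and with Al, of which 99.6% to 99.7% lie at nuclear loci. Transcripts without reads are not listed and were taken as 0, which allows up to 3 reads, or 0.217 to 0.223 RPKM at 1 kb. This limit holds only if the reads of a locus were counted, and the counting rule is not stated. UBC21, a common reference gene with 2 coding transcripts in RefSeq, was listed in no library. An unlisted locus is therefore not read as silent.

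Counts and RPKM were summed over the transcripts of each locus (AT1G to AT5G) with pandas 2.3.3. Of the listed nuclear loci, 19984 of 20080 were found among RefSeq protein-coding loci (TAIR10.1), and for 97.5% of those with 1 transcript the coding length was the same; promoters, overlaps and shared 32-base words come from that assembly. Functions were assigned by 30 ordered keyword classes to the description column; RefSeq product text gave the same class for 227 of the 300. The keywords were adjusted after the descriptions had been read, and the members, lists and named loci were chosen with earlier results of these data known.

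Named were the 25 highest loci, the 3 highest of each function class with at least 5 of the 300, loci at the class limits, the 5 furthest up and down in each ratio, the 3 highest transcription loci and the marker lists; other loci were named after their values were seen. Intervals (95%, scipy 1.17.1) cover counting error only, as PCR reads are not independent molecules. edgeR 4.0.16 and DESeq2 1.42.0 gave alternative scaling only. The size rule was tested on simulated data.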

Additional observations from a re-analysis of the deposited data

How the results depend on the processing

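No paired analysis was possible because each group was 1 library, so no replicate could be left out either. Counts of loci with an RPKM of at least 100, 10 to 100 and 1 to 10 stayed within 1.5 times under every alternative; the class under 1 fell to 744 loci with coverage of at least 50% and to 789 with at least 10 reads, since both rules remove loci with few reads. The share of nuclear RPKM in the 300 highest loci was 34.5% with the highest transcript per locus or with reads per kilobase of the longest coding length, 35.2% with coverage of at least 50%, and 29.5% of reads when loci were ranked by reads; 2 alternatives chosen after seeing the data gave 33.0% without MT1A and 41.0% among loci with 1 RefSeq transcript. Ranked by reads, 41 cytosolic ribosomal proteins were among the highest 300; they made up 36.0% of the highest 100 loci and 12.8% of the highest 1000. Ranking by reads also gave 18 loci with no function named, 22 with other functions, 10 proteases and inhibitors, 11 of protein folding and 4 stress proteins; RefSeq product text gave 12 with no function named, 49 with other functions and 2 of methionine and one-carbon metabolism. At 1.5-fold in place of 2-fold, 9 members were higher and 19 lower in luh-4 Al, 6 and 22 in Col Al, and 0 and 6 in luh-4 control. Other pseudocounts, TMM or DESeq2 scaling and, for luh-4 Al, other RPKM minimums left these counts within 1.5 times. TATAAA, in an alternative added later, was found on the gene strand 50 to 16 bases before the start in 10.07% of the 300 and 8.77% of all promoters.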

Other observations

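Ranked by reads in place of RPKM, 172 of the 300 loci were the same. FBA8 then ranked first with 69928 reads, PYK10 had 69118 and peroxidase 32 had 66235, while LOS1, with a coding length of 2532 bases, and NIA1, with 2754 bases, rose to ranks 6 and 9.

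AT2G01021, an uncharacterized locus at rank 41 with 1598 RPKM, lies on chromosome 2 at 6571 to 6672 in TAIR10.1, 626 bases after the end of the annotated ribosomal RNA locus AT2G01020. AT3G02468 and AT1G70782, listed at 782 and 655 RPKM, are not among the RefSeq protein-coding loci used here. By its description, 1 member of the 300 is an upstream open reading frame. Of the members in RefSeq, 19 overlap another gene on the same strand and 60 one on the other strand; since the strand setting is not stated, reads of such pairs cannot be told apart.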
